A study of Mus musculus with 4 samples.

Results

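Lipocalins and small lipid carriers are proteins that bind hydrophobic molecules and move them between or within cells. The 9 genes described here are Apod, Apoe, Apoc1, Rbp4, Lcn2, Ptgds, Crabp1, Crabp2 and Saa3, and they were found as the non-control probes that carry these names in the scanner files. Each gene had 1 probe, so the group holds 9 of 41174 probes, and the probe of Apoe was spotted 10 times on every array. Apod was selected on its ratios to DMSO, which were among the highest in all 3 treatments, and the other genes were chosen by what their proteins carry. They are 9 of 22244 named genes.

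RNA came from 3T3-L1, a mouse preadipocyte line that turns into adipocytes after hormonal induction. All cultures received insulin, dexamethasone and IBMX from day 0, together with 0.1% DMSO, 100 μg/mL bilberry extracts, 100 nM delphinidin or 100 nM cyanidin, and were harvested on day 2. The extracts and compounds were dissolved in DMSO, so that all 4 cultures held it at 0.1%. (A further label gives 6 days of treatment, and the harvest on day 2 stated in the design is followed here.) Bilberry extracts are a mixture rich in anthocyanidins, whereas delphinidin and cyanidin are pure compounds, and the former differs from the latter by an additional hydroxyl group on its B ring. There was 1 Agilent Whole Mouse Genome array for each condition, of 1 cell line. No replicate exists for any condition, hence differences are given without a test, and it is the number of arrays that limits how precise they are.

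Lipocalins share a barrel-shaped fold with a pocket for a small lipid. Apod carries arachidonic acid and other small lipids, Rbp4 carries retinol in plasma, Lcn2 binds bacterial siderophores and is secreted by adipocytes during inflammation, and Ptgds is both a lipocalin and the enzyme that makes prostaglandin D2. Apoe and Apoc1 are exchangeable apolipoproteins of lipoprotein particles, Crabp1 and Crabp2 hold retinoic acid inside cells, and Saa3 is an acute phase protein that associates with high density lipoprotein. In fat tissue several of these proteins are known as adipokines.

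Promoter sequences of RefSeq on GRCm38.p6 were found for 7 of the 9 genes, not for Apoc1 and Crabp2. Those of Apod, which stood farthest from DMSO, of Apoe, and of the acute phase genes Lcn2 and Saa3 are given 5′ to 3′, from 250 bases before to 50 bases after the start of transcription. Apoe has 3 listed starts and the first is shown. Capitals mark the letters TTGCNNAA of a C/EBP motif on either strand, chosen because C/EBP factors are induced early in adipocyte differentiation.
Apod, chr16:31314759-31315058 on the minus strand: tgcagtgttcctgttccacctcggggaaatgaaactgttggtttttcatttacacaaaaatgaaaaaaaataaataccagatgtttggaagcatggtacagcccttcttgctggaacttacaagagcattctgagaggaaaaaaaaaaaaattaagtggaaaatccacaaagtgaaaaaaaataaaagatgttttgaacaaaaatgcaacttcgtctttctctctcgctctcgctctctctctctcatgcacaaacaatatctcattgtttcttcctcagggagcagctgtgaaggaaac
Apoe, chr7:19699139-19699438 on the minus strand: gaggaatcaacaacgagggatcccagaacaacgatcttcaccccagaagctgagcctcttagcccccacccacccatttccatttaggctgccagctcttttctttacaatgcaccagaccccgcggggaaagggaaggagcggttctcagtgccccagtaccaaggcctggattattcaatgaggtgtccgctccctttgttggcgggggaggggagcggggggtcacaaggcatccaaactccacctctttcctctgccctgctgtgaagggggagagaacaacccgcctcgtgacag
Lcn2, chr2:32387690-32387989 on the minus strand: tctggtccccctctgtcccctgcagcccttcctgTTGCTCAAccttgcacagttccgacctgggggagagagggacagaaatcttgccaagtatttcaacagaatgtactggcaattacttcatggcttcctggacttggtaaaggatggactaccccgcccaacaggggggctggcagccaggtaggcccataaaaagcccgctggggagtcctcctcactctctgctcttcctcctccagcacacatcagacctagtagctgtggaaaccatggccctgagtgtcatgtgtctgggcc
Saa3, chr7:46715627-46715926 on the minus strand: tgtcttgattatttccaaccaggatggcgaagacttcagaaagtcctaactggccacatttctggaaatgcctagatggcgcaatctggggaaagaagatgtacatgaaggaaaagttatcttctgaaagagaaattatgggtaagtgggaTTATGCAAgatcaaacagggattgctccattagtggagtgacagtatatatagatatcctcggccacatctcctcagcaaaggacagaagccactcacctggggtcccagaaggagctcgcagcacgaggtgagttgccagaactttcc
The C/EBP letters began 216 bases before the start of Lcn2 and 99 bases before that of Saa3, and the windows of Apod and of this Apoe start held none. Among all 32851 promoter windows of this length, 10.8% held them. An NF-kappaB motif was found in 1.63% of all windows and in none of those of the 7 genes. The letters TATAAA were in 13.6% of all windows and, among these genes, in the second window of Apoe and of Rbp4, whose second window also held the C/EBP letters. Neither TGACNNNGC, searched for antioxidant response elements (12.4% of all windows), nor AGGTCA, searched for nuclear receptors (16.3%), was in a window of these genes. The letters ACANNNTGT, searched for the glucocorticoid receptor because dexamethasone was in the medium, were in 6.85% of all windows and in those of Lcn2, 152 bases before its start, and of Crabp1. All letters were searched on both strands. These matches are a description of letters and not of bound sites.

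The level given for a gene is its processed signal relative to the 75th percentile of the same array. The 75th percentile was 860.9 with DMSO, 576.1 with bilberry extracts, 1009 with delphinidin and 1016 with cyanidin, and 22784 to 24950 probes were well above background by the test of the scanner software, which is what detected means in what follows. The bilberry array had brighter spike-in control RNAs than the DMSO array, by 0.96 in log2 signal. Scaling to them moved bilberry log2 ratios by -1.54 and those of delphinidin and cyanidin by 0.26 and 0.23, so bilberry values are read relative to the other genes of that array. Markers of preadipocytes were well above background at 8 of 8 genes and those of adipocytes at 9 of 10 on every array. The summed level of the former was 399 with DMSO, 390 with bilberry extracts, 368 with delphinidin and 321 with cyanidin, and that of the latter was 391, 269, 426 and 463, to which Fabp4 gave 265, 137, 231 and 258. The median log2 ratio of the detected preadipocyte markers was -0.16, -0.08 and -0.23, with Ly6a lowest at -2.13, -2.25 and -1.08. That of the detected adipocyte markers was 0.02, 0.20 and 0.32. These went both ways, with Slc2a4 lowest at -1.54, -0.61 and -0.28 and Cfd highest at 0.80, 1.15 and 1.75. Of the macrophage markers 3 of 6 were well above background (Cd68, Csf1r and Cd14), and Ptprc, Adgre1 and Itgam were not. The summed macrophage level ran from 0.51 with delphinidin to 0.851 with DMSO. No endothelial marker of 4 was well above background on any array, and of 5 hepatocyte markers Fgb alone was, with DMSO and with cyanidin. The part of such cells in the results was not tested, and in a culture measured as a whole, fewer cells of a kind and less RNA per cell cannot be told apart.

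Of the 9 genes, 5 were well above background on all 4 arrays (Apod, Apoe, Apoc1, Lcn2 and Saa3), Ptgds was so on the 3 treated arrays, and Rbp4, Crabp1 and Crabp2 on none. Apod alone passed 2-fold in each treatment, which is 1 of 9 genes. Of the named genes, 21593 had a value on all 4 arrays after outlier spots were left out, and the share of these past 2-fold was 13.9% with bilberry extracts, 7.32% with delphinidin and 7.13% with cyanidin, and since these same ratios chose Apod, nothing is read from its count.

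**Figure D1:**
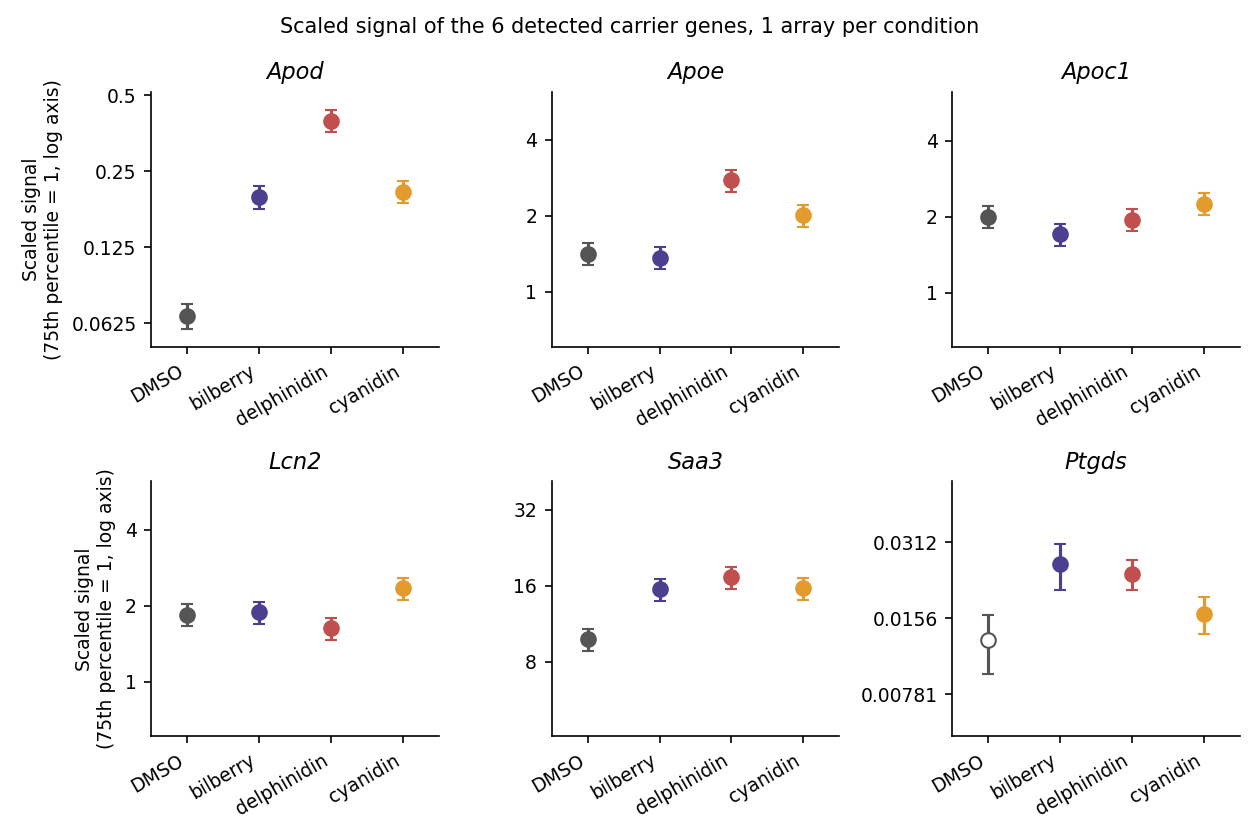
Scaled signal (75th percentile of the array set to 1, log axis) of the 6 carrier genes that were detected, with 1 point per array and bars for the error that the scanner software assigns to the signal. An open point was not well above background. Apod was lowest with DMSO and highest with delphinidin, Saa3 was lowest with DMSO, and Apoc1 and Lcn2 stayed between 1.63 and 2.34 on all arrays.

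Apod showed the widest range of the 5 genes detected on all arrays. Its level was 0.0671 with DMSO, 0.198 with bilberry extracts, 0.397 with delphinidin and 0.208 with cyanidin. All 3 treated arrays were above the DMSO array, the bilberry and cyanidin arrays lay close to each other, and the delphinidin array stood above both. The log2 ratios to DMSO were 1.56, 2.56 and 1.63, or 2.96-fold, 5.91-fold and 3.1-fold, each with an error of 0.22 from the error model of the scanner software. That error covers a single spot on a single array and not the spread between cultures. Among the 12899 genes Apod was the 4th from the top with delphinidin, the 14th with cyanidin and the 87th with bilberry extracts. By the smallest of its 3 ratios it was also the 4th, between S100b at 1.59 and Adamts8 at 1.52, and these ranks describe how it was chosen.

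The Apod signal was dim. With DMSO its processed signal was 57.77, which is 4.44 times the lowest signal well above background on that array, and with delphinidin it was 36.8 times the lowest such signal of its own array. The raw spot mean with DMSO was 299 over a local background of 245. Normexp background correction with an offset of 50, refitted without spots marked for their local background, gave 1.15, 1.78 and 0.99. The cyanidin value was then below 2-fold. Spike-in scaling left a bilberry ratio of 0.02. The 3 comparisons share the DMSO array, and a deviation of its single Apod spot would enter each of them. On mm8 the probe was placed on the minus strand of chromosome 16 between 31220206 and 31223191, an interval of 2986 bases that includes sequence the probe itself does not hold. Exon annotation of that build was not used here.

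The genes whose 3 log2 ratios lay closest to those of Apod, by Euclidean distance over the 3 treatments among 12898 other genes, were Adamts8, Akr1c14 and Tcstv1. Adamts8, a secreted metalloprotease, was at a distance of 0.22, with 1.74, 2.66 and 1.52, and its other probe gave 1.38, 2.44 and 1.39. Akr1c14, an aldo-keto reductase that acts on steroids, was at a distance of 0.31 with 1.47, 2.27 and 1.61. Tcstv1 was at a distance of 0.44 with 1.28, 2.23 and 1.71. In each of these genes, as in Apod, delphinidin gave the highest of the 3 values, which follows from how they were selected. With spike-in scaling the bilberry values of Adamts8, Akr1c14 and Tcstv1 were 0.20, -0.07 and -0.26. Under the refitted normexp Tcstv1 was at 0.78, 0.97 and 0.64 and Adamts8 was at 0.99 with cyanidin, all below 2-fold.

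**Figure D2:**
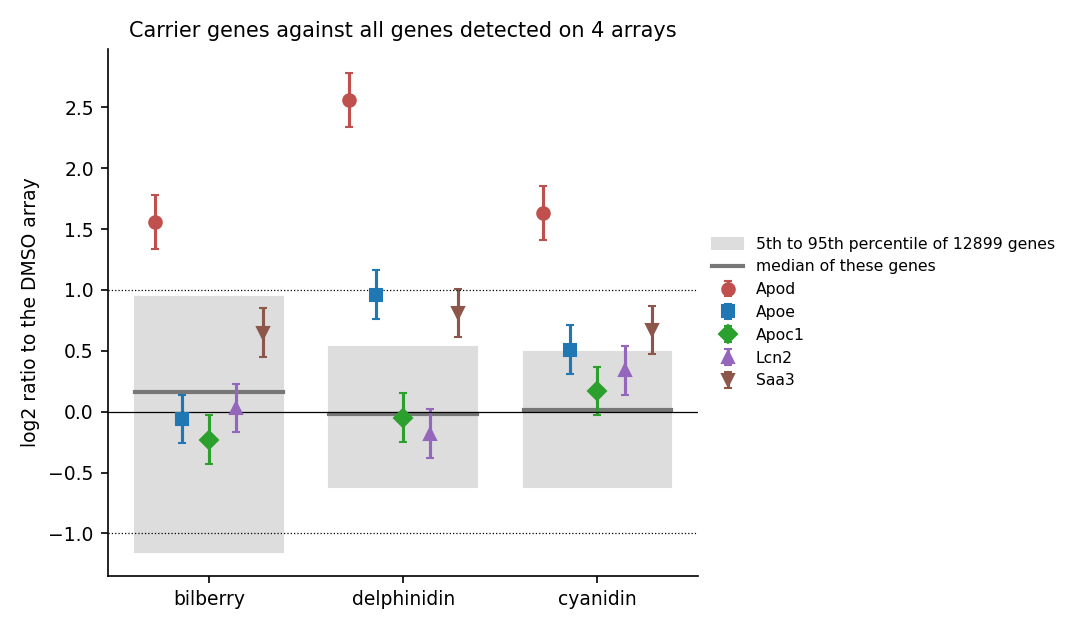
Log2 ratio to the DMSO array (y axis) of 5 carrier genes in each treatment, with bars for the software's error. Grey boxes span the 5th to the 95th percentile of 12899 genes well above background on all arrays, grey lines are their medians, and dotted lines mark 2-fold. Apod lies above the box in every treatment, Saa3 lies above it with delphinidin and cyanidin but inside the wider bilberry box, Apoe lies above it with delphinidin and cyanidin, and Apoc1 and Lcn2 lie inside all boxes.

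Apoe, the ligand through which lipoprotein remnants reach their receptors, had the most spots behind its levels, 10 on each array. Its level was 1.41 with DMSO (SD 0.024 on the log2 scale over 8 spots), 1.36 with bilberry extracts (SD 0.023, 7 spots), 2.76 with delphinidin (SD 0.02, 9 spots) and 2.01 with cyanidin (SD 0.02, 8 spots). The DMSO and bilberry arrays were close together, while the delphinidin and cyanidin arrays were higher, and the spots of these arrays overlapped neither each other nor those of DMSO. The log2 ratios were -0.06, 0.96 and 0.51. The delphinidin value is 1.95-fold, just below the 2-fold threshold, and under spike-in scaling it was 1.22. The bilberry value was then -1.60. Spots of an array are technical repeats of the same labeled RNA, so their spread says nothing of the spread between cultures.

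Position on the array was checked with these spots, because probes past 2-fold in all 3 treatments were unevenly placed. When the rows were split into 3 equal blocks, 3.01% of 13392 singly spotted probes in the middle block passed, detected or not, and 1.34% of 25736 in the outer blocks. The delphinidin ratio of Apoe was 0.97 over 5 spots in the middle block and 0.96 over 3 spots in the outer blocks. The cyanidin ratio was 0.52 over 4 spots and 0.49 over 3 spots, and the bilberry ratio was -0.06 in both regions. The Rbp4 probe was the only other member probe in the middle block. The genes read from probes in that block include Akr1c14, Orm1, Orm3, Rbp2, Dhrs9, Adh1, Bco2, Abcg1, Hp and Akr1b3. Adh1 and Akr1b3 also had a detected probe outside it, with 1.16, 1.47 and 1.45 for Adh1 and 1.32, 0.48 and 0.80 for Akr1b3. For the others its part was not tested.

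**Figure D3:**
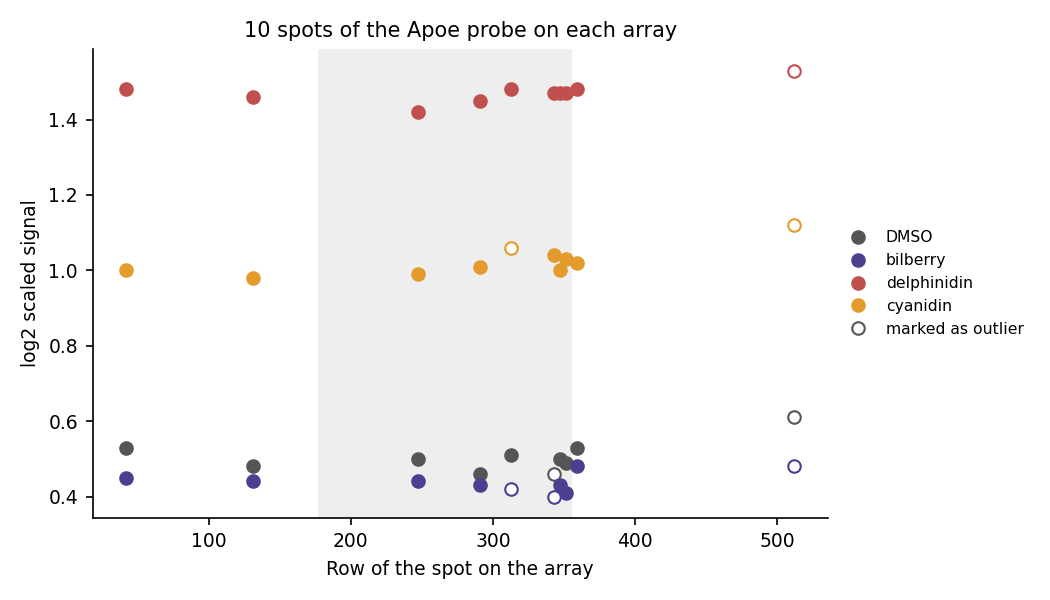
Log2 scaled signal of each of the 10 Apoe spots (y axis) by the row in which it lies (x axis), for the 4 arrays, with the middle block of rows shaded. Filled points entered the mean and open points were marked as outliers by the scanner software. Delphinidin spots lie above cyanidin spots, and both lie above those of DMSO and bilberry extracts, in every row.

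Apoc1, a small apolipoprotein encoded next to Apoe, was close to DMSO under the 75th percentile scaling. Its level was 2.00 with DMSO, 1.70 with bilberry extracts, 1.94 with delphinidin and 2.25 with cyanidin. All 4 arrays lay within a narrow range, with bilberry extracts lowest and cyanidin highest. The log2 ratios were -0.23, -0.05 and 0.17, each with a software error of 0.20, and under spike-in scaling the bilberry and delphinidin values were -1.78 and 0.21. On chromosome 7 of mm8 the Apoc1 probe covers 18848029 to 18848088 and the Apoe probe 18854905 to 18854964, both on the minus strand. Apoc2, an activator of lipoprotein lipase from the same cluster, was at -0.05, 0.36 and 0.35. Apoc4, another gene of the cluster, was detected with DMSO, delphinidin and cyanidin and had 0.15 and -0.26 with these compounds.

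Lcn2 was bright and differed little from DMSO. Its level was 1.84 with DMSO, 1.88 with bilberry extracts, 1.63 with delphinidin and 2.34 with cyanidin. The DMSO and bilberry arrays were nearly equal, delphinidin was below both, and cyanidin was above them. The log2 ratios were 0.03, -0.18 and 0.34 with a software error of 0.20, and the bilberry value took the other sign under quantile normalization (-0.01), normexp before its refit (-0.21) and spike-in scaling (-1.51), as did the delphinidin value under spike-in scaling (0.08). Its mm8 position is chromosome 2, 32207526 to 32207770.

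Saa3 was higher in every treatment under the 75th percentile scaling. Its level was 9.86 with DMSO, 15.5 with bilberry extracts, 17.3 with delphinidin and 15.7 with cyanidin, and no spot was saturated. The 3 treated arrays lay close together and all stood above the DMSO array. The log2 ratios were 0.65, 0.81 and 0.67 with a software error of 0.20, whereas spike-in scaling gave -0.89 with bilberry extracts, the first normexp fit 0.09 and quantile normalization 0.43. With Apod, Saa3 was 1 of 196 genes, or 1.52% of 12899, that were more than 1.5-fold higher in all 3 treatments, which for Saa3 did not hold with bilberry extracts under those 3 alternatives. With bilberry extracts alone 18.7% of these genes were more than 1.5-fold higher, against 4.21% with delphinidin and 3.02% with cyanidin. Its mm8 position is chromosome 7, 46580703 to 46580762.

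Ptgds was close to the detection limit. Its level was 0.0128 with DMSO, where it was not well above background, 0.0256 with bilberry extracts, 0.0234 with delphinidin and 0.0163 with cyanidin. The treated arrays were all above the DMSO value, and the bilberry and delphinidin arrays were above the cyanidin array. Set against the lowest signal well above background on the DMSO array, Ptgds was at least 1.69-fold higher with bilberry extracts, at least 1.55-fold with delphinidin and at least 1.08-fold with cyanidin. The bilberry bound does not hold under spike-in scaling, and the cyanidin bound is smaller than the software's error. The software's error was 26.5% of the signal with DMSO and 13.8% to 20.8% on the treated arrays. Its mm8 position is chromosome 2, 25289331 to 25289862.

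Rbp4, Crabp1 and Crabp2 were undetected on all 4 arrays, so no fold is given for them. Their raw spot means were 248 to 254 over local backgrounds of 243 to 251, and their processed signals were 2.208 to 3.080. Their probes lie on chromosome 19 from 38181783 to 38181842, on chromosome 9 from 54566522 to 54566581 and on chromosome 3 from 88034687 to 88034746. The plasma carrier of retinol and both cytosolic carriers of retinoic acid were therefore not detectable in these cells on day 2 with these probes.

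Delphinidin and cyanidin were used at the same dose, 100 nM, and for the same time, and were compared directly over the 5 genes well above background on all arrays. Of the 9 members 0 passed 2-fold between the compounds, beside 6.6% of all genes and 0.783% of genes well above background on all arrays. At these shares a count of 0 among so few genes says little. Apod had a log2 level of -1.33 with delphinidin and -2.26 with cyanidin, a difference of 0.93 with a software error of 0.21. Of 12899 genes 0.946% were as far from 0, and since Apod was selected on its ratios with both compounds, this share is a description from which nothing is read. Apoe was higher with delphinidin by 0.45, a distance that 5.71% of genes reached. Lcn2 was on the other side, at 0.70 with delphinidin and 1.22 with cyanidin, a difference of -0.52 that 4.08% of genes reached. Saa3 differed by 0.14 and Apoc1 by -0.21, against a software error of 0.20. Ptgds, detected with both, differed by 0.52 near the detection limit. With 1 array for each compound no interval over cultures can be given, and the compounds cannot be called alike or different at any of these genes. The differences of the 5 genes detected on all arrays kept their sign under all 8 alternative ways of processing, with 0.79 to 0.95 for Apod, 0.45 to 0.49 for Apoe and -0.52 to -0.50 for Lcn2. Some of this was fixed in advance. The deposited table holds the same intensities, and keeping outlier spots could change Apoe alone of these genes.

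The other lipocalins and carriers were read from lists written by hand. Of 15 further lipocalin genes, 6 were detected on all arrays and 0 of them passed 2-fold in any treatment, while 10.7%, 2.73% and 2% of all such genes did with bilberry extracts, delphinidin and cyanidin. At these shares a count of 0 among so few genes says little. The orosomucoid genes Orm1, Orm2 and Orm3 are acute phase lipocalins whose near-identical sequences a probe may not separate. They were at 0.12, 0.52 and 0.04 with bilberry extracts, at -0.19, -0.11 and -0.29 with delphinidin and at 0.70, 0.75 and 0.55 with cyanidin. The 13 intracellular lipid-binding proteins include the fatty acid and retinol carriers. Of these, 4 were well above background on both arrays of the bilberry comparison and 8 on both arrays for each pure compound. Among all such genes 10.7%, 3.27% and 2.47% passed 2-fold with bilberry extracts, delphinidin and cyanidin. Of the carriers so detected Rbp2 alone passed, at 1.15 with cyanidin. Its other probe was at 0.50, and the first was also at 0.50 under normexp before and after its refit. Rbp7 was at least 2.12-fold lower with bilberry extracts, where it was undetected, and this bound was not examined under other processing. Fabp4, the abundant adipocyte fatty acid carrier, was at -0.95, -0.19 and -0.04. Fabp5, another fatty acid carrier, was at 0.22, 0.80 and 0.73. Of 12 apolipoprotein genes with a probe, 4 were detected on all arrays and 0 of these passed 2-fold. The shares given for the lipocalins apply.

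The retinoid list held the most genes over 2-fold higher. Of those well above background on both arrays compared, 4 of 14 were over 2-fold higher and 1 was lower with bilberry extracts, 3 of 15 were higher and 2 lower with delphinidin, and 3 of 15 were higher and 1 lower with cyanidin. The corresponding shares of all genes well above background on both arrays were 4.13% and 6.6%, 1.24% and 2.03%, and 0.703% and 1.76%. Dhrs3, which reduces retinaldehyde to retinol, was at 1.55, 1.47 and 1.17, and its other probe was at 1.41, 1.39 and 1.13. Adh1 and Adh7, alcohol dehydrogenases that also oxidize retinol, were at 1.33, 1.52 and 1.52 and at 1.04, 1.58 and 1.30. Under spike-in scaling the bilberry values of Adh1 and Adh7 were -0.21 and -0.50, and that of Dhrs3 was 0.01. Under the refitted normexp Adh7 was at 0.82, 1.01 and 0.80, below 2-fold with bilberry extracts and cyanidin.

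Stra6, the cell surface receptor of Rbp4, had levels of 0.559 with DMSO, 1.64 with bilberry extracts, 0.604 with delphinidin and 0.626 with cyanidin. The bilberry array stood above the other 3, with a log2 ratio of 1.55, or 0.01 under spike-in scaling. Dhrs9, a short-chain dehydrogenase, was lower in all treatments at -2.12, -1.79 and -1.83 (0.31 with bilberry extracts under normexp before its refit), and its other probe was undetected on all arrays. Bco1, which cleaves beta-carotene, was at -1.53 with delphinidin and -0.84 with cyanidin, and was at least 3.12-fold lower with bilberry extracts, where it was not well above background. That bilberry value became 1.74 under normexp before its refit and -0.44 after it, and the delphinidin value was then -0.72, so neither was past 2-fold. The retinoic acid receptors Rara and Rarg and the degrading enzyme Cyp26b1 lay between -0.47 and 0.07 in all treatments.

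**Figure D4:**
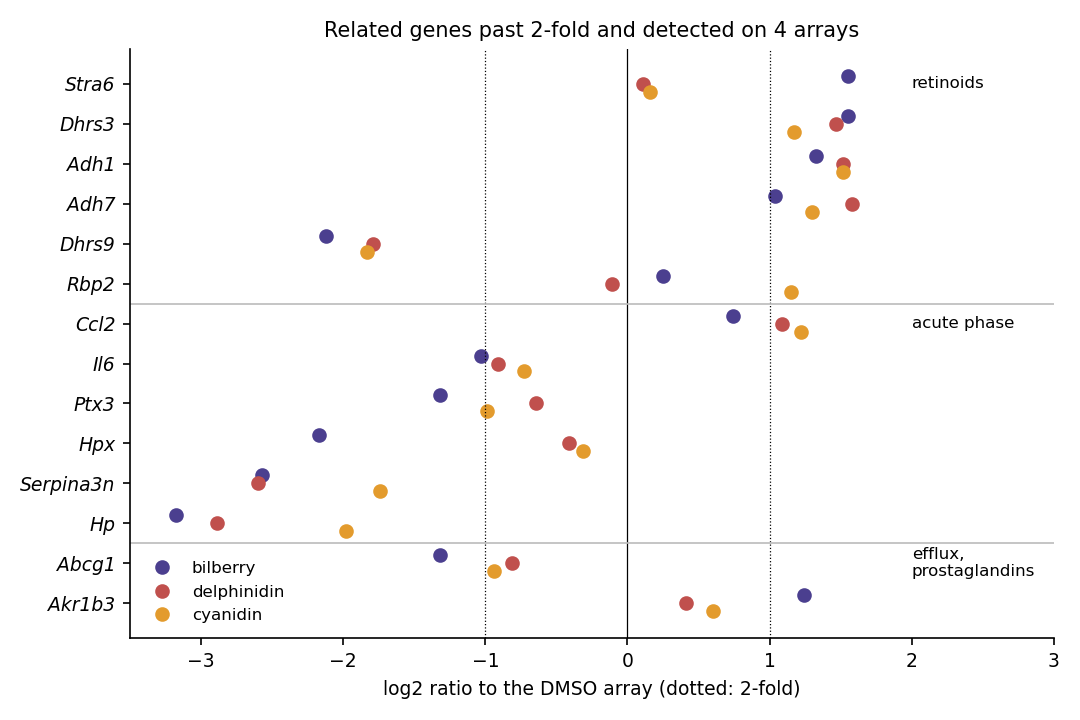
Log2 ratio to the DMSO array (x axis) in the 3 treatments for the 14 genes of the related lists that passed 2-fold in at least 1 treatment and were well above background on all 4 arrays, grouped as retinoid genes, acute phase genes, and efflux or prostaglandin genes. Dhrs3, Adh1 and Adh7 lie beyond 2-fold higher and Dhrs9, Hp and Serpina3n beyond 2-fold lower in every treatment under the 75th percentile scaling.

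A further list held acute phase genes together with the cytokines, receptors and transcription factors that induce them, without Lcn2, Saa3 and the orosomucoids. Of its 19 genes with a probe, all detected on every array, 0 were over 2-fold higher and 5 lower with bilberry extracts, and 1 was higher and 2 were lower with delphinidin and with cyanidin. Among all genes detected on both arrays the lower side was also the larger, at 6.6% against 4.13%, 2.03% against 1.24% and 1.76% against 0.703%. Hp, the hemoglobin scavenger haptoglobin, had levels of 20.5 with DMSO, 2.26 with bilberry extracts, 2.76 with delphinidin and 5.18 with cyanidin. All treated arrays were far below the DMSO array, with log2 ratios of -3.18, -2.89 and -1.98. Serpina3n, a protease inhibitor of a family of near-identical genes, was at -2.57, -2.60 and -1.74. Hpx and Ptx3 were at -2.17 and -1.32 with bilberry extracts and less than 2-fold below DMSO with the pure compounds. With cyanidin, quantile normalization gave -1.06 for Ptx3. Another Ptx3 probe was at -1.38, -0.67 and -1.08. A further detected Ptx3 probe was at -0.84, -0.51 and -0.76, below 2-fold in every treatment. Il6 was at -1.03, -0.91 and -0.73, and with outlier spots kept its delphinidin value was -1.07, past 2-fold. The bilberry values of Hpx and Il6 became 1.38 and 1.60 under normexp before its refit and -0.48 and -0.13 after it, so neither was then past 2-fold. Ccl2, a monocyte chemoattractant, was higher at 0.74 (-0.80 under spike-in scaling), 1.09 and 1.22. Among the other serum amyloid genes, the brighter Saa1 probe was at 0.07, 0.42 and 0.26 and Saa2 was at -0.46, 0.01 and -0.06. Saa4 was at -0.06, 0.61 and 0.96. The dimmer Saa1 probe was at -0.85, -0.25 and -0.34.

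Receptors of the carriers and lipid efflux genes, 15 of 18 of which were well above background on all arrays, held 1 gene past 2-fold among those detected on both arrays compared, where the share of all genes was 10.7% with bilberry extracts, 3.27% with delphinidin and 2.47% with cyanidin. Abcg1, which loads cholesterol onto lipoproteins, was at -1.32 with bilberry extracts (0.43 under normexp before its refit and -0.77 after it), -0.81 with delphinidin and -0.94 with cyanidin. Bsg, reported as a receptor of Apod, was at 0.18, -0.24 and -0.22. Slc22a17, a receptor of Lcn2, was at 0.16, -0.38 and -0.29. Lrp1, a receptor that binds Apoe, was at 0.03, -0.27 and -0.11. Among prostaglandin genes Akr1b3, an aldose reductase that can form prostaglandin F2α, was at 1.24 with bilberry extracts (-0.30 with spike-in scaling, 0.58 with the first normexp fit and 0.86 with quantile normalization), 0.41 and 0.60, and the prostaglandin D2 receptor Ptgdr2 was at 0.61, -0.11 and -0.08. The prostacyclin receptor Ptgir was at least 2.41-fold lower with bilberry extracts, where it was undetected, and this bound was not examined under other processing.

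**Figure D5:**
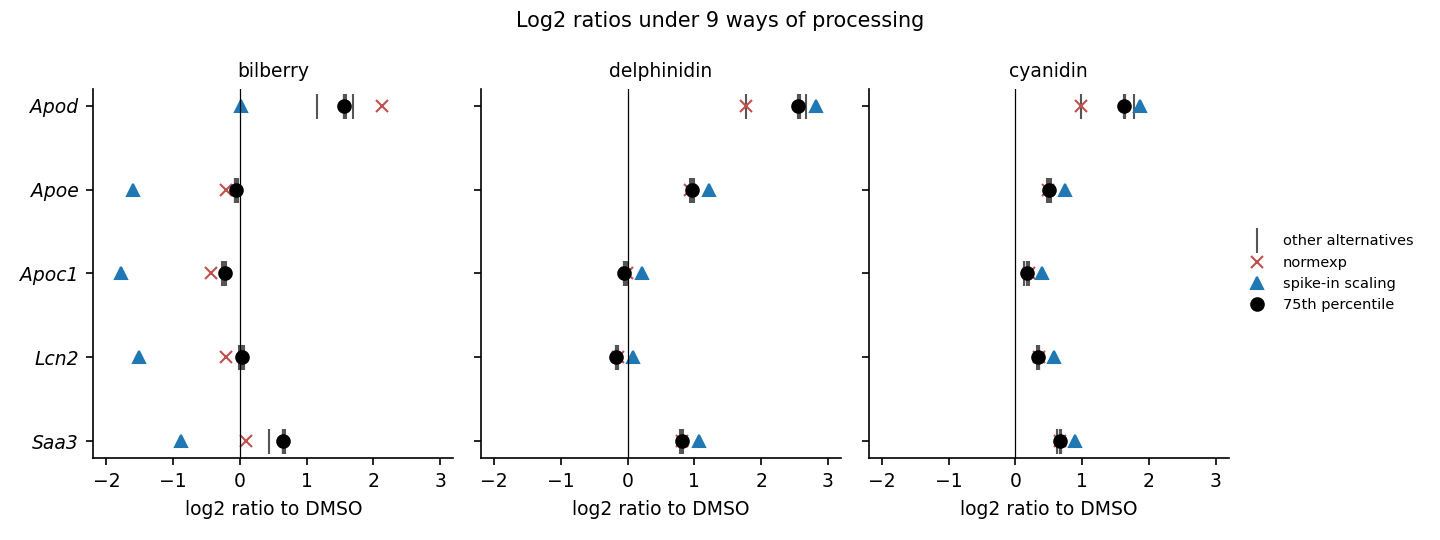
Log2 ratio to DMSO (x axis) of 5 carrier genes under the 75th percentile scaling (black points) and 8 alternatives, with spike-in scaling as triangles and normexp as crosses. Delphinidin and cyanidin values of Apod, Apoe and Saa3 stay above 0 in all of them, while spike-in scaling moves every bilberry value to the left.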

How the data were processed

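RNA of 3T3-L1 cells on day 2 was hybridized to 1 single-dye Agilent array for each of 4 conditions. The authors deposited the Feature Extraction output, whose processed signal is an intensity with the local background subtracted and spatial trends removed. A surrogate replaces the value of spots that do not exceed background. The file headers name mm8 as the build, and the submitters' processing notes give 9.5.1.1 as the software version. A deposited series table holds the same intensity, with a largest relative difference of 0. The authors divided by the 75th percentile, which is not in the deposited values, and this was repeated here over the non-control spots of each array.

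Spots marked as outliers (701 to 875 for each array) were left out and the remaining spots of a probe were averaged as log2 values. A gene was read from its probe with the highest mean signal among 21593 named genes. Names were matched through RefSeq accessions to GRCm38.p6 for 24375 probes. Past 2-fold means a linear ratio over 2 or under 1/2. Where a probe was undetected (not well above background) on 1 array, a bound against the lowest detected signal there was used. The median SD of probes spotted 10 times was 0.030 to 0.038 on the log2 scale over 143 probes.

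The members, lists and alternatives were chosen with earlier results of these data known. The genes named include all members and the 3 genes most like Apod. From the related lists, genes past 2-fold and detected on both arrays are named, with up to 4 others for each list by their role. Marker genes are named in part, and the genes under other observations were chosen after they were seen. Alternatives were normexp (offset 50), normexp refitted without spots marked for their local background, quantile normalization, scaling to detected probes, a percentile with control spots, spike-in scaling, the deposited table, outlier spots kept, thresholds of 1.5 and 3, filters on detection and other probe rules. The calculations were tested on simulated data. Python 3.11.15, numpy 2.4.6, pandas 2.3.3, R 4.3.3 and limma 3.58.1 were used.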

Additional observations from a re-analysis of the deposited data

How the results depend on the processing

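No paired analysis was possible because each condition had 1 array. With 1 member past 2-fold in each treatment under the main scaling, bilberry extracts gave 5 under normexp, 4 under spike-in scaling, 2 when scaled to detected probes, 4 at a threshold of 1.5 and 0 at a threshold of 3. All such counts take in members whether or not they were detected. Under normexp Apoe was at -0.21, Apoc1 at -0.44, Lcn2 at -0.21 and Saa3 at 0.09 with bilberry extracts. Apart from Apod, that count was therefore made up of Ptgds, undetected with DMSO, and members undetected on all arrays. The bilberry count at 1.5 also took in Ptgds and the undetected Crabp2. Delphinidin gave 2 under quantile normalization, 4 under spike-in scaling and 4 at 1.5. Cyanidin gave 0 under normexp and under its refit, and 2 at 1.5. Between delphinidin and cyanidin the count of 0 became 1 at 1.5. Under spike-in scaling the bilberry count did not include Apod, at 0.02. It included Apoe, Apoc1 and Lcn2 on the lower side, at -1.60, -1.78 and -1.51. The remaining member counted with bilberry extracts under spike-in scaling was not detected on any array. That scaling put the median of detected genes at -1.38 with bilberry extracts. The share of all genes past 2-fold was not counted under these scalings.

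Of 120 related genes, 19 passed with bilberry extracts, 13 with delphinidin and 16 with cyanidin, beside 13.9%, 7.32% and 7.13% of all genes. With bilberry extracts the count was 72 under normexp, 9 after its refit, 80 under spike-in scaling, 40 at 1.5, 6 at 3 and 12 among the 72 genes detected on all 4 arrays. With delphinidin it was 24 at 1.5, 6 at 3 and 7 among these 72. With cyanidin it was 7 under normexp and after its refit, 32 at 1.5, 6 at 3, 8 among these 72 and 10 among those detected on at least 1 array compared. Over all genes the shares were 31.2%, 15.9% and 15.4% past 1.5-fold and 5.48%, 3.12% and 3.34% past 3-fold. Among genes detected on all 4 arrays, 10.7%, 2.73% and 2% passed 2-fold. No such share was counted under normexp or spike-in scaling, so nothing is read about the related genes from those counts. Spike-in scaling shifted bilberry log2 ratios by -1.54.

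Of the log2 ratios past 2-fold, 10 changed sign, all with bilberry extracts. Under normexp Dhrs9 was at 0.31, Bco1 at 1.74, Abcg1 at 0.43, Hpx at 1.38 and Il6 at 1.60. Under spike-in scaling Adh1 was at -0.21, Adh7 at -0.50, Akr1b3 at -0.30, Akr1c14 at -0.07 and Tcstv1 at -0.26. The background mean of the normexp fit was -344.9 on the bilberry array and -5.647 after the refit, with -6.154 to -3.883 on the other arrays. Signal over background limits Apod, Ptgds and the 3 members that were not detected.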

Other observations

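Further genes of the retinoid and receptor lists were well above background on 1 or 2 arrays only, and are given as values chosen after they were seen. Lrp2, an endocytic receptor for lipocalins and retinol carriers, had a level of 0.432 with DMSO and was not well above background in any treatment, at least 19.4-fold, 40.0-fold and 40.2-fold lower with bilberry extracts, delphinidin and cyanidin. Its other 3 probes were undetected on all arrays, DMSO included. Bco2, a carotenoid-cleaving enzyme with 1 probe, had a level of 0.194 with delphinidin, at least 12.8-fold above DMSO. With bilberry extracts its level was 0.024, at least 1.59-fold above DMSO, and with cyanidin it was not well above background. Lrat, which esterifies retinol, was well above background with delphinidin alone, at least 2.85-fold above DMSO. Its other probe was undetected with DMSO, bilberry extracts and delphinidin and had no value with cyanidin. Each of these values rests on a single spot.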
